A study of Neurospora crassa OR74A with 13 samples.

Results

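The alternative oxidase and alternative NADH dehydrogenase genes of the filamentous fungus Neurospora crassa are described here, 5 genes of the 9733 measured. They were chosen by gene identifier, with no threshold on their values: NCU07953 (aod-1) and NCU04874 for the oxidases, and NCU05225, NCU08980 and NCU00153 for the rotenone-insensitive NADH dehydrogenases. The rule called NCU04874 aod-2, but the RefSeq gene table of assembly NC12 names it aod-3 and gives the symbol aod-2 to another gene, NCU03352; it is called aod-3 here. The same table names the dehydrogenases nde-1 (NCU05225), nde-2 (NCU08980, listed in the deposited files under the older identifier NCU11397) and ndi-1 (NCU00153). All 5 were found in each of the 13 libraries and all 5 passed the filter on low values.

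Mycelium was raised from conidia in sucrose medium for 16 h, washed, and moved for 4 h to Avicel (crystalline cellulose), cellobiose (the disaccharide released from cellulose), sucrose or medium with no carbon source. The wild type (WT) was the reference strain FGSC 2489. Biological triplicates of it were measured for Avicel, for no carbon and for sucrose, and 1 library for cellobiose. The TBGK strain carries deletions of gh3-4, gh1-1 and gh3-3, genes for beta-glucosidases, the enzymes that hydrolyse cellobiose to glucose, and was measured in 1 library each on Avicel, cellobiose and sucrose. Polyadenylated RNA was sequenced, and levels are FPKM (sequenced fragments per unit of transcript length, scaled to the size of the library), so that levels of different genes can be set side by side.

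In the standard mitochondrial respiratory chain, electrons from NADH enter at the proton-pumping complex I, pass through ubiquinone to complex III, cytochrome c and complex IV, and reduce oxygen. Alternative NADH dehydrogenases are single proteins that pass electrons to ubiquinone without pumping protons and are not blocked by rotenone. In N. crassa, nde-1 and nde-2 encode enzymes on the outer face of the inner membrane, facing the cytosol, and ndi-1 encodes the enzyme that faces the matrix. Alternative oxidase takes electrons from ubiquinol directly to oxygen, past complexes III and IV. In N. crassa aod-1 encodes the oxidase made when the cytochrome pathway is blocked, and aod-2 and aod-5 encode transcription factors needed for that induction.

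On the contigs named in the deposited files, whose genome build is not given in the sources used here, aod-1 lies at supercont10.4:1235252-1236932, aod-3 at supercont10.4:578396-579678 and nde-1 at supercont10.4:5690739-5693395. The gene nde-2 lies at supercont10.3:4124180-4126613 and ndi-1 at supercont10.3:2805065-2807033. Each had 1 listed transcript, of 1128 bases for aod-3 to 2595 bases for nde-1, and none overlapped another listed gene.

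Depth in the 9 triplicate libraries ranged from 472 to 5640 aligned megabases, an 11.96-fold range, with Avicel replicate 1 and sucrose replicate 1 the shallowest. For the 4 single libraries depth is unknown. Of the variance left within the 3 WT groups, 49.5% lay on 1 component. On the side of Avicel replicate 1 (loading 0.72) stood sucrose replicate 1 (0.30) and no carbon replicate 2 (0.23). The other 6 libraries stood on the opposite side. Deviations from a group mean cancel within the group, so each group had libraries on both sides by construction. The 3 genes deleted in TBGK had between 0 and 9.21 FPKM in its libraries. Fewer cells of a type and less RNA per cell cannot be told apart in these bulk samples.

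**Figure D1:**
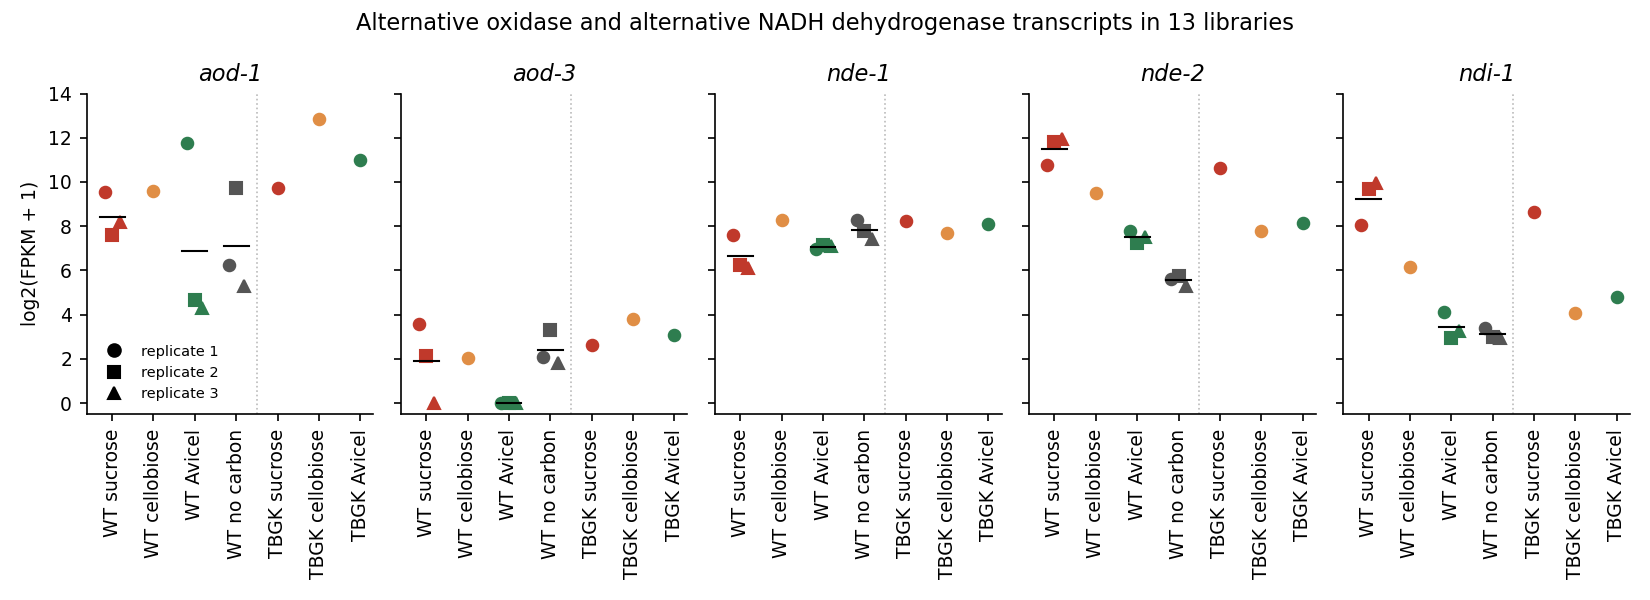
FPKM of each of the 5 genes in each of the 13 libraries, on a log2(FPKM + 1) axis. Points are single libraries, grouped by strain and carbon source. The 3 sucrose points of nde-2 and ndi-1 stand above all other WT points, and the aod-1 points of one group lie as far apart as 18.4 and 3444 FPKM on Avicel.

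Both nde-2 and ndi-1 were high on sucrose and fell in the WT on the other media tested, and these were the steepest called differences among the 5 genes. The level of nde-2, which encodes an external dehydrogenase, was 1731, 3537 and 3964 FPKM in sucrose replicates 1, 2 and 3. It was 219, 148 and 180 FPKM on Avicel. On no carbon it was 47.4, 52.8 and 38.2 FPKM. The 3 groups did not overlap, with sucrose the highest (3077 ± 1185 FPKM, SD, n = 3), Avicel between (183 ± 35.6) and no carbon the lowest (46.2 ± 7.38). On the log2(FPKM + 1) scale nde-2 fell by 4.00 (standard error, SE, 0.31) on Avicel against sucrose, with an adjusted p of 1.17e-05 (limma, Benjamini-Hochberg adjustment over 8759 genes). It fell by 5.95 (SE 0.31) on no carbon against sucrose (limma adjusted p = 1.79e-06). It rose by 1.95 (SE 0.31) on Avicel against no carbon (limma adjusted p = 0.00725), the only one of the 5 genes called between these media.

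The internal dehydrogenase gene ndi-1 was also highest on sucrose and had a lower level than nde-2 in every library. Its level was 262, 819 and 990.2 FPKM in the sucrose replicates, 16.6, 6.82 and 8.52 FPKM on Avicel, and 9.58, 7.04 and 6.80 FPKM on no carbon. All sucrose values were above all others of the WT triplicates, while the Avicel and no carbon values overlapped. It fell by 5.77 (SE 0.51) on the log2 scale on Avicel against sucrose (limma adjusted p = 2.35e-05) and fell by 6.10 (SE 0.51) on no carbon against sucrose (limma adjusted p = 1.63e-05). Between Avicel and no carbon its difference was 0.33 (SE 0.51, limma adjusted p = 0.782), and without Avicel replicate 1, the highest of its Avicel libraries, it was -0.02.

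The external dehydrogenase gene nde-1, whose enzyme in N. crassa oxidises NADPH in a calcium-dependent way, went the other way on no carbon. Its level was 310 FPKM in no carbon replicate 1, 216 in replicate 2 and 172 in replicate 3, against 193, 73.8 and 68.8 FPKM on sucrose. It was 124, 140 and 138 FPKM on Avicel, the tightest of the groups (134 ± 8.57 FPKM, SD, n = 3). The no carbon and sucrose groups overlapped, because sucrose replicate 1 was above no carbon replicate 3. The rise on no carbon against sucrose was 1.18 on the log2 scale (SE 0.39, limma adjusted p = 0.0248), 0.79 above the median of all genes tested in that comparison. The call was lost without no carbon replicate 1 (adjusted p = 0.0876) or 2 (adjusted p = 0.052), and without sucrose replicate 2 (adjusted p = 0.0853) or 3 (adjusted p = 0.0888), all from limma. Against sucrose, the Avicel level differed by 0.42 (SE 0.39, limma adjusted p = 0.371), and by 0.90 (limma adjusted p = 0.0132) without sucrose replicate 1, one of the shallowest libraries. Against no carbon, the Avicel level differed by -0.75 (SE 0.39, limma adjusted p = 0.330).

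The oxidase gene aod-1 varied more between replicates than between media. On Avicel its level was 3444 FPKM in replicate 1 but 24.0 in replicate 2 and 18.4 in replicate 3. On no carbon it was 74.3, 846 and 38.8 FPKM. Sucrose replicates had 737, 192 and 291 FPKM. One replicate thus stood far above the others on Avicel and another on no carbon, and all 3 groups overlapped. The highest replicate was 187-fold above the lowest on Avicel, 21.8-fold on no carbon and 3.83-fold on sucrose. Among all genes of a library, counted from the most abundant, aod-1 was number 222 in Avicel replicate 1, number 7048 in replicate 2 and number 7309 in replicate 3. The SD within groups was 2.84 on the log2 scale, a size exceeded by 8 of the 8759 genes tested, whose median was 0.36. Mean read depth over the transcript was 208 in Avicel replicate 1, 9.29 in replicate 2 and 6.53 in replicate 3, and 858 in no carbon replicate 2.

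None of the WT comparisons called aod-1. The differences were -0.20 on the log2 scale for Avicel against no carbon (limma adjusted p = 0.973), -1.54 for Avicel against sucrose (limma adjusted p = 0.515) and -1.34 for no carbon against sucrose (limma adjusted p = 0.559), each with an SE of 1.93. The value against sucrose turned on Avicel replicate 1: without it, the difference was -3.97 on the log2 scale, with a limma adjusted p of 0.0221. Without both Avicel replicate 1 and sucrose replicate 1, the difference was -3.43 and was not called (limma adjusted p = 0.0532). The difference between Avicel and no carbon ranged from -2.63 to 1.12 when 1 library was left out, and so had no stable direction. Both libraries with a high aod-1 level lay on the same side of the component that Avicel replicate 1 led. Their deviations from their group means had a correlation of 0.44 across genes, which are not independent replicates. Avicel replicate 3 and no carbon replicate 3, both with a low aod-1 level, had 0.45. Deviations within a group of 3 cancel, so these values are tied to each other and do not single out the high libraries. Avicel replicate 1 was the shallowest of the 9 libraries, at 472 aligned megabases, and no carbon replicate 2 was among the deepest, at 5525. The part of these library differences in the aod-1 levels was not tested.

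The other oxidase gene, aod-3, was at most 12.97 FPKM in all 13 libraries. It was listed at 0 in all 3 Avicel replicates. Its level was 3.22, 8.81 and 2.50 FPKM on no carbon and 10.96, 3.34 and 0 FPKM on sucrose. The Avicel values were therefore below every no carbon value, while sucrose overlapped both. The mean read depth over its transcript was at most 8.93 in these libraries. No fold is given against values listed at 0; limma's adjusted p was 0.155 for Avicel against no carbon and 0.0757 for Avicel against sucrose, and the no carbon level differed from sucrose by 0.49 on the log2 scale (SE 0.82, limma adjusted p = 0.618). Without sucrose replicate 3, the library listed at 0, the adjusted p for Avicel against sucrose was 0.00629 (limma).

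Counted over the 5 genes, 1 rose and 0 fell on Avicel against no carbon, where 5.63% of all genes tested were called, 3.9% rising and 1.72% falling. On Avicel against sucrose 0 rose and 2 fell, against 58.3% of all genes called, 33.9% rising and 24.5% falling. On no carbon against sucrose 1 rose and 2 fell, against 64.3% of all genes called, 40.2% rising and 24.1% falling. At an unadjusted p under 0.05 (limma) the numbers were 2, 3 and 3 of the 5. Calls against sucrose were thus common in the whole table. The median difference of all genes was 0.26 for Avicel and 0.39 for no carbon against sucrose. The last 2 comparisons share the sucrose libraries.

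**Figure D2:**
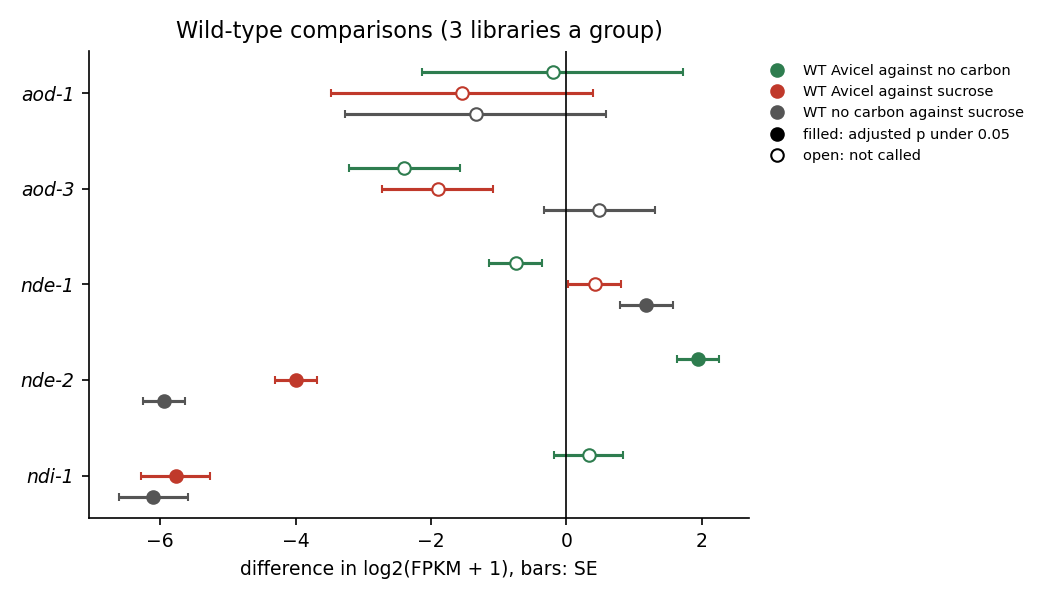
Log2 difference in FPKM + 1 of each gene in the 3 comparisons among WT triplicates, with the standard error from limma as bars. Filled points passed an adjusted p of 0.05: nde-2 in all 3 comparisons, ndi-1 in both against sucrose, and nde-1 on no carbon against sucrose. The aod-3 points on Avicel rest on a group listed at 0.

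The mix of dehydrogenase transcripts changed with the medium. On sucrose the 3 genes summed to 2186, 4430 and 5023 FPKM, and nde-2 made up 78.9% to 79.8% of the sum, ndi-1 12.0% to 19.7% and nde-1 1.37% to 8.83%. On no carbon the sums were 367, 276 and 217 FPKM, and nde-1 held 78.3% to 84.4% while nde-2 held 12.9% to 19.1%. On Avicel the sums were 360, 295 and 326 FPKM, close to those on no carbon, but nde-2 held 50.3% to 60.9% and nde-1 34.5% to 47.4%. The most abundant transcript was thus nde-2 on sucrose and Avicel and nde-1 on no carbon, in all 3 replicates of each. These shares lie within 1 library and are not moved by a common scaling factor for the library; quantile normalization, which changes ratios between genes, was not applied to them.

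**Figure D3:**
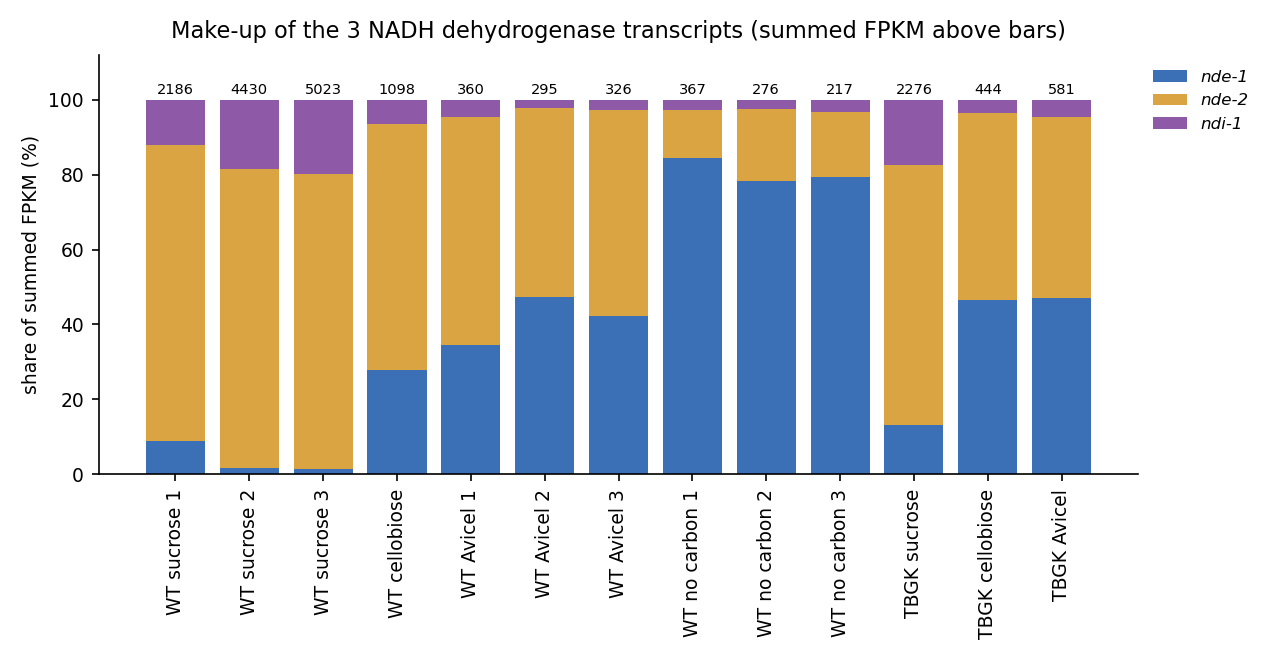
Share of the summed FPKM of nde-1, nde-2 and ndi-1 held by each gene, in percent, 1 bar for each of the 13 libraries. nde-2 holds 78.9% to 79.8% of the sum in the WT sucrose libraries and nde-1 78.3% to 84.4% in the no carbon libraries.

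WT on cellobiose, a single library with no test, stood between sucrose and Avicel for nde-2 and ndi-1. The level of nde-2 was 721 FPKM and that of ndi-1 71.3 FPKM, below every WT sucrose replicate and above every WT Avicel replicate. The level of nde-1 was 306 FPKM, above all Avicel and sucrose replicates and within the range on no carbon. The share of all genes outside these ranges was not computed. Against the mean of the sucrose replicates the log2 difference was -3.05 for ndi-1 and 1.61 for nde-1, and nde-2 was lower by 2 log2 units. The level of aod-1 was 760 FPKM and that of aod-3 3.10 FPKM, differences of 1.13 and 0.13 from sucrose. In this comparison 4 of the 5 genes differed by 2-fold or more, as did 29.1% of all genes. The dehydrogenase mix was 65.6% nde-2, 27.9% nde-1 and 6.49% ndi-1.

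In TBGK on cellobiose the levels of nde-2 and ndi-1 were lower than in the WT on cellobiose and close to those of the WT on Avicel. The level of nde-2 was 221 FPKM and that of ndi-1 15.8 FPKM in TBGK on cellobiose, log2 differences of -1.70 and -2.11 from the WT on cellobiose. From the WT on Avicel they differed by 0.29 and 0.62. The level of nde-1 was 207 FPKM, -0.56 from the WT on cellobiose. The level of aod-1 was 7391 FPKM, the highest of all 13 libraries and number 107 among the genes of its library, 3.28 above the WT on cellobiose. The level of aod-3 was 12.97 FPKM, also its highest, 1.77 above. Of the 5 genes 4 differed by 2-fold or more between the strains on cellobiose, against 37.5% of all genes. Between TBGK on cellobiose and the WT on Avicel 25% of all genes did so. Of the 4 members not listed at 0 in the WT on Avicel, aod-1 did, with a difference of 5.96. That value was 8.39 without WT Avicel replicate 1, 4.84 without replicate 2 and 4.65 without replicate 3.

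On Avicel TBGK had 2052 FPKM of aod-1, which lies between the highest and the next of the WT Avicel replicates. It had 274 FPKM of nde-1, 280.1 FPKM of nde-2 and 27.0 FPKM of ndi-1, each above the highest WT Avicel replicate. The log2 differences from the WT mean on Avicel were 4.11 for aod-1, 1.36 for ndi-1, 1.03 for nde-1 and 0.63 for nde-2, and that of aod-1 was 6.54 without WT Avicel replicate 1, 2.99 without replicate 2 and 2.81 without replicate 3. TBGK had 7.47 FPKM of aod-3, which the WT lists at 0. A difference of 2-fold or more was seen in 25.2% of all genes. On sucrose TBGK had 835 FPKM of aod-1, 5.16 of aod-3, 299 of nde-1, 1580.0 of nde-2 and 396 of ndi-1. The differences from the WT mean on sucrose were 1.27, 0.72, 1.58, -0.87 and -0.59, and 13.1% of all genes differed by 2-fold or more. Without sucrose replicate 1 nde-2 differed by -1.24, ndi-1 by -1.18 and aod-3 by 1.56, so that all 5 genes passed 2-fold, in place of 2. Without sucrose replicate 2 aod-1 differed by 0.85, and without sucrose replicate 3 aod-3 differed by -0.23. The TBGK levels of aod-1, nde-1 and nde-2 lay outside the range of the WT sucrose replicates, and those of aod-3 and ndi-1 inside it. A single library can lie outside the range of 3 replicates by chance. The share of all genes that did so was not computed, on Avicel or on sucrose.

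Within TBGK nde-2 and ndi-1 were lower on Avicel and cellobiose than on sucrose, in single libraries with no test. On Avicel against sucrose the log2 differences were -2.49 for nde-2 and -3.83 for ndi-1, and on cellobiose against sucrose -2.83 and -4.56. The nde-1 level differed by -0.13 and -0.53, and aod-1 was higher by 1.30 on Avicel and 3.14 on cellobiose. The aod-3 level differed by 0.46 on Avicel and 1.18 on cellobiose. Differences of 2-fold or more were seen in 46.7% of all genes on Avicel and 51.2% on cellobiose. The TBGK sucrose library is shared by both comparisons. The dehydrogenase mix in TBGK was 69.4% nde-2 on sucrose, 49.8% on cellobiose and 48.2% on Avicel, where nde-1 held 47.2%.

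Whether the response to the medium differed between the strains was tested in a fit of all 13 libraries, in which single libraries are assumed to vary like the WT triplicates. For Avicel against sucrose the response of TBGK minus that of the WT was 1.51 for nde-2 (SE 0.62, limma adjusted p = 0.358), 1.95 for ndi-1 (SE 1.02, limma adjusted p = 0.415) and 2.84 for aod-1 (SE 3.88, limma adjusted p = 0.752). It was -0.55 for nde-1 (limma adjusted p = 0.759) and 2.36 for aod-3 (limma adjusted p = 0.535), which the WT lists at 0 on Avicel. None of the 5 genes was called by limma, 1 had an unadjusted p under 0.05, and 0.0567% of all genes were called. For cellobiose against sucrose it was -2.14 for nde-1 (SE 0.86, limma adjusted p = 0.247) and 2.01 for aod-1 (limma adjusted p = 0.883). It was -0.83 for nde-2, -1.52 for ndi-1 and 1.05 for aod-3, with limma adjusted p-values of 0.619, 0.562 and 0.852. Again limma called none of the 5, 1 had an unadjusted p under 0.05, and 2.03% of all genes were called. Without the 2 shallowest libraries the values for nde-2 (2.02, adjusted p = 0.0104) and ndi-1 (2.88, adjusted p = 0.00637) on Avicel and for nde-1 on cellobiose (-2.62, adjusted p = 0.0189) passed in limma. In that fit 24.3% of all genes were called for Avicel against sucrose and 18.9% for cellobiose against sucrose. A single library differs from the WT triplicates in deposit as well as in strain or medium, and these cannot be told apart.

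The genes with the most similar profiles were found by the root mean square difference in log2(FPKM + 1) over the 13 libraries, after each gene's mean was subtracted; the points share libraries and scaling, and no test was made. Nearest to nde-2 were NCU00931 (0.49), hsp60 (NCU01589, 0.55), the mitochondrial chaperonin, and NCU03748 (0.57), against a median of 2.41 over all genes. Nearest to ndi-1 were NCU07884 (0.46), NCU09488 (0.49) and NCU03051 (0.54), against a median of 2.77. The genes nde-2 and ndi-1 differed from each other by 0.80, while nde-1 differed from nde-2 by 2.58. Nearest to nde-1 were NCU04360 (0.28), NCU08965 (0.40) and stk-33 (NCU05600, 0.41), a predicted protein kinase, against a median of 1.01. Nearest to aod-3 were NCU05653 (0.92), NCU11365 (0.94) and NCU04466 (0.96), against a median of 1.60.

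Nearest to aod-1 were NCU02623 (0.87), NCU11338 (0.89) and NCU11468 (0.93), none of which has a symbol in the reference table, against a median of 2.81 over all genes. NCU02623 had 6338 FPKM in Avicel replicate 1 against 144 and 83.8 in replicates 2 and 3, and 1444 FPKM in no carbon replicate 2 against 118 and 109 in replicates 1 and 3. NCU11468 had 23356 FPKM in Avicel replicate 1 against 88.3 and 38.2, and 6975 FPKM in no carbon replicate 2 against 88.2 and 65.6. This likeness is what chose them and is given as a description. The oxidase genes differed from each other by 2.22.

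**Figure D4:**
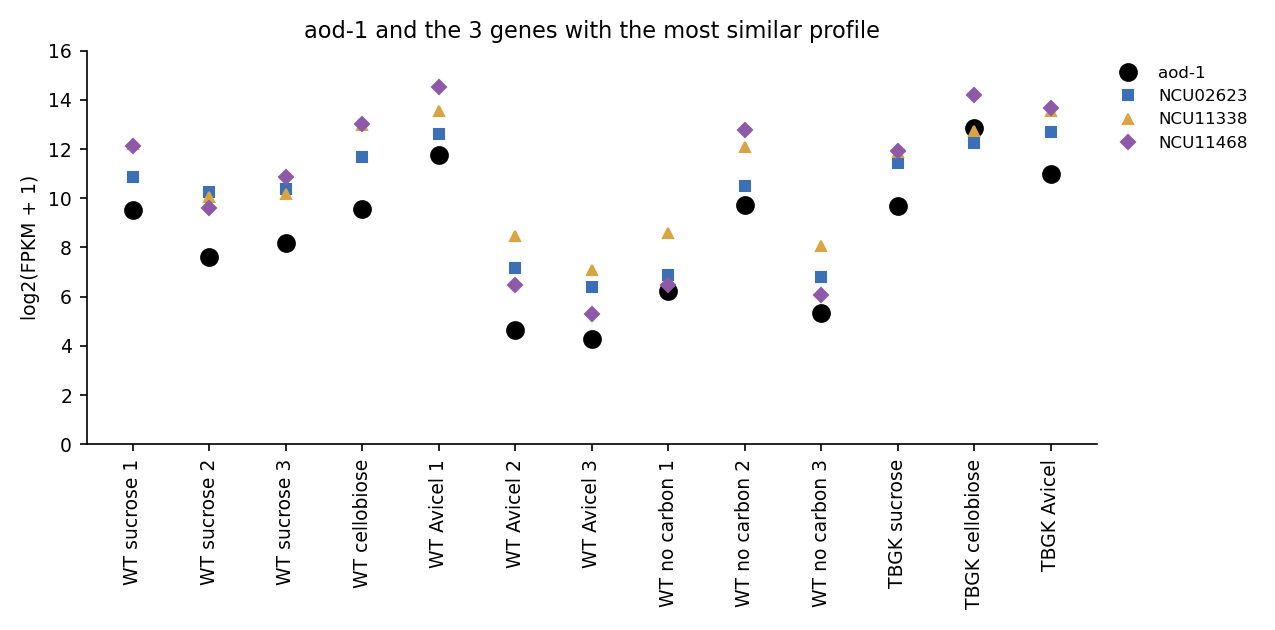
Log2(FPKM + 1) in each of the 13 libraries for aod-1 and the 3 genes nearest to it. Points are single libraries. All 4 genes are high in Avicel replicate 1, in no carbon replicate 2 and in TBGK on cellobiose, and low in Avicel replicates 2 and 3.

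The regulator gene aod-2 (NCU03352) was the only other gene of the aod and nde families that fell in WT. Its level was 58.5, 68.7 and 63.0 FPKM on Avicel, 156, 176 and 134 on no carbon. The sucrose replicates had 135, 198 and 189 FPKM. Avicel was below both other media without overlap. It fell by 1.27 on the log2 scale on Avicel against no carbon (SE 0.20, limma adjusted p = 0.00592) and fell by 1.43 against sucrose (limma adjusted p = 0.000286). In the same Avicel replicates 1, 2 and 3 aod-1 had 3444, 24.0 and 18.4 FPKM. A relation between the levels of aod-1 and aod-2 was not tested. The partner regulator aod-5 (NCU03938) was not called in any of the 3 comparisons (limma). With each library scaled to a sum of 1000000 FPKM, aod-2, aod-5 and nde-3 were all called higher on no carbon than on sucrose. So were 5215 of all 8759 genes under that scaling, where the median difference of all genes was 0.998. A further external dehydrogenase gene, nde-3 (NCU09447), rose by 0.47 on no carbon against sucrose (SE 0.15, limma adjusted p = 0.0233), a call lost under median-of-ratios scaling and under quantile normalization, and without no carbon replicate 1 or 3 or sucrose replicate 2 or 3.

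In the main respiratory chain, complex I and the later complexes differed in their counts. Of 29 complex I genes (symbols nuo), 0 were called on Avicel against no carbon (limma; 1 at an unadjusted p under 0.05), 1 rose and 3 fell on Avicel against sucrose, and 4 rose and 5 fell on no carbon against sucrose. Of all genes 33.9% rose and 24.5% fell in the first of these comparisons with sucrose, and 40.2% rose and 24.1% fell in the second. Their median differences against sucrose were -0.07 and -0.05, where the medians of all genes were 0.26 and 0.39. That split turned with the scaling: with libraries scaled to a sum of 1000000 FPKM, 22 rose and 0 fell on no carbon against sucrose, where 5215 of all 8759 genes rose and 1103 fell. Under quantile normalization 10 rose and 0 fell, where 2551 of all genes rose and 2403 fell. The 10 genes of complexes III and IV, cytochrome c and their assembly all fell against sucrose on both Avicel (median -1.81) and no carbon (median -1.78), whereas 24.5% and 24.1% of all genes fell. With that scaling, 8 of these 10 fell. On Avicel against no carbon 0 of the 10 were called (limma; 1 at an unadjusted p under 0.05).

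Cytochrome c (cyc-1, NCU01808), the carrier between complexes III and IV, had 11453, 19811 and 17131 FPKM on sucrose, 657, 227 and 209 on Avicel. On no carbon its replicates had 259.6, 855 and 176 FPKM. It fell by 5.64 (SE 0.62) on Avicel (limma adjusted p = 8.3e-05) and fell by 5.53 on no carbon against sucrose, about the size of the ndi-1 falls. The gene pep (NCU02549), for a complex III core protein that is also the processing peptidase, fell by 3.25 and 3.22, and cya-5 (NCU08692), needed for complex IV, by 3.07 and 2.92. Against sucrose the ATP synthase gene atp-1 differed by -1.90 on Avicel and by -2.22 on no carbon, and atp-2 by -2.07 and by -2.47, all called by limma, and none of these calls held under quantile normalization. The citrate synthase gene cit-1 (NCU01692), the sole tricarboxylic acid cycle gene matched by symbol, rose by 1.14 on Avicel against no carbon (limma adjusted p = 0.0295) and fell against sucrose, an order of media like that of nde-2.

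**Figure D5:**
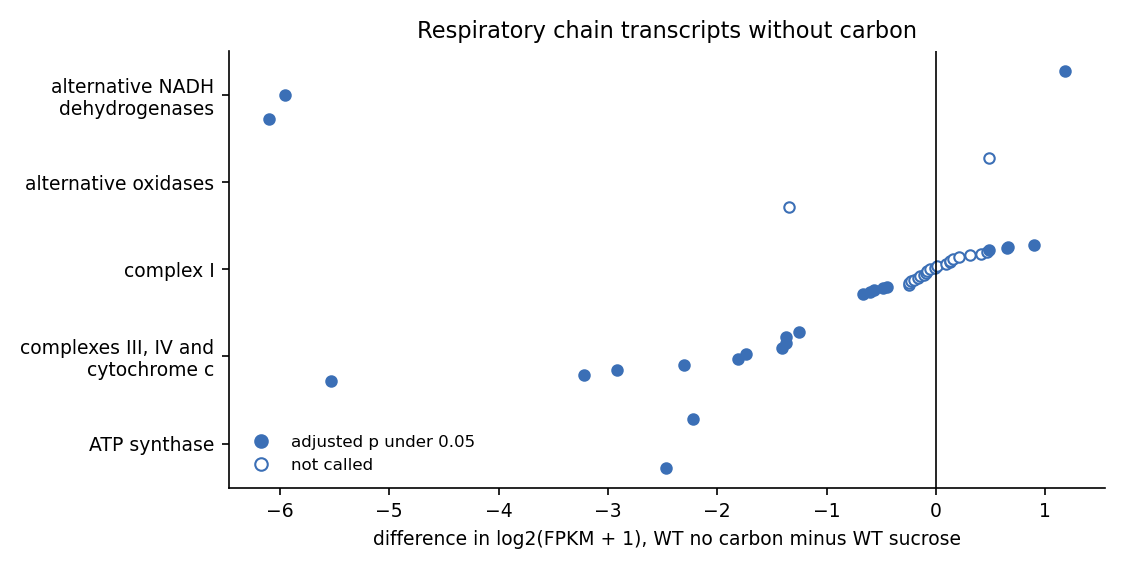
Log2 differences in FPKM + 1 for the 5 genes and for the listed genes of the respiratory chain, in the WT on no carbon against sucrose. Points are genes; nde-2, ndi-1 and cyc-1 lie lowest, and complex I genes lie around 0.

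Of 6 superoxide dismutase and catalase genes, 3 rose and 2 fell against sucrose in both media, where 58.3% (Avicel) and 64.3% (no carbon) of all genes were called, and 0 were called on Avicel against no carbon (limma; 2 at an unadjusted p under 0.05). The catalase gene cat-2 (NCU05770) rose by 6.41 on Avicel and 7.18 on no carbon, cat-1 by 3.63 and 5.21, and the mitochondrial dismutase gene sod-2 by 1.31 and 1.10, while cat-3 fell by 1.67 and 1.56. Genes of conidiation, the formation of conidia (the asexual spores from which the cultures were started), moved with the same media. Whether their levels follow the number of spores was not tested. All 6 (con-6, con-8, con-10, con-13, eas and fl) rose in both comparisons against sucrose, and 0 were called between Avicel and no carbon (limma; 4 at an unadjusted p under 0.05). Their summed level was 90.6 to 450 FPKM on sucrose, 19751 to 40554 on Avicel and 81167 to 212456 on no carbon in the WT. It was 18893 FPKM in WT on cellobiose, and 155, 11009 and 38857 FPKM in TBGK on sucrose, Avicel and cellobiose. On sucrose 4, 1 and 2 of the 6 were at 0 in replicates 1, 2 and 3, and in TBGK on sucrose 1 was. The part of this difference in the falls of nde-2 and ndi-1 was not tested.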

How the data were processed

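RNA of 13 libraries was aligned with TopHat and quantified as FPKM with Cufflinks 0.9.3, per the submitters' processing notes. The authors deposited FPKM for 9907 transcripts in the 9 triplicate libraries, summed here to 9733 genes, and for 9733 genes in the 4 single libraries. The deposited coverage (mean read depth per base) gave the depth of the triplicate libraries. Read counts were not used here, so no counting interval is given. Strand-specific counting is not given in the sources used here. Symbols came from a RefSeq table of assembly NC12, which matched 9016 genes and gave 1106 a symbol.

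WT triplicates were compared in 1 fit with limma 3.58.1 (intensity trend, R 4.3.3) on log2(FPKM + 1), for the 8759 genes that reached an FPKM of 1 in 3 or more of the 9 libraries. A Benjamini-Hochberg adjusted p under 0.05 over all genes was a call; rose and fell are used for calls. The fit over all 13 libraries held 8822 genes. Where a group had 1 library, differences were computed without a test, and a fold of at least 2 was counted. Fold changes on the log2(FPKM + 1) scale understate changes of low genes. The fit was tested on simulated data. The text names all 5 genes in each comparison, the 3 most similar profiles of each, and up to 3 called genes per list. The 5 genes and the lists were chosen with earlier results of these data known. Alternatives were the pseudocount, the filter, 3 scalings, a replicate block and libraries left out. Tables were made with pandas 2.3.3 and numpy 2.4.6 in Python 3.11.15, and plots with matplotlib 3.10.9.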

Additional observations from a re-analysis of the deposited data

How the results depend on the processing

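Of 710 alternative values for 60 differences, 681 were counted as unchanged. Part of that count was fixed in advance, because some alternatives cannot move a difference. Leaving out a sucrose library, for example, left aod-1 on Avicel against no carbon at -0.2. An uncalled difference could also move far and be counted as unchanged. Without Avicel replicate 1 that aod-1 difference was -2.63. For tested differences this meant the same direction and the same side of the threshold. For differences without a test it meant a shift smaller than the gene's SD within the WT groups. There a sign change was counted only where the reported difference was at least 2-fold. Crossing 2-fold was not counted. So aod-3 in WT on cellobiose against sucrose, from -0.82 to 0.98 with 1 library left out, was counted as unchanged. The calls of nde-2 and ndi-1 in the WT comparisons kept their direction and their side of the threshold under all alternatives run. With 1 library left out, the log2 difference between Avicel and no carbon ranged from -2.63 to 1.12 for aod-1 and from -0.02 to 0.57 for ndi-1. Between Avicel and sucrose it ranged from -3.97 to -0.24 for aod-1, from -2.85 to -1.06 for aod-3 and from 0.16 to 0.90 for nde-1. Between no carbon and sucrose it ranged from -2.66 to -0.46 for aod-1, from -0.46 to 1.33 for aod-3 and from 0.91 to 1.65 for nde-1. The Avicel interaction of aod-1 ranged from 1.54 to 5.27, and the cellobiose interaction of nde-1 from -2.62 to -1.88.

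Without the 2 shallowest libraries, ndi-1 differed by -0.02 between Avicel and no carbon and nde-1 by 0.95 between Avicel and sucrose (limma adjusted p = 0.0155), and the interactions of nde-2 (2.02), ndi-1 (2.88) and nde-1 (-2.62) passed, while the genes called over the whole table went from 5 to 2142 for Avicel and from 179 to 1663 for cellobiose, of 8822. Under quantile normalization aod-3 differed by -2.47 between Avicel and sucrose (limma adjusted p = 0.0496), by -1.10 between no carbon and sucrose, and in TBGK by -0.77 and 0.01 on Avicel and cellobiose against sucrose. For aod-3 in TBGK on Avicel against the WT, whose values are listed at 0, the difference was 6.24 with a pseudocount of 0.1, 0.81 with 10 and 1.24 with libraries scaled to a sum of 1000000; for TBGK on cellobiose it was 7.03, 1.20 and 1.70. That scaling put nde-2 in TBGK at -0.41 from the WT on sucrose. The cause was not tested. The aod-3 gene did not pass a filter of FPKM 10.

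Scaling moved the median of all genes between no carbon and sucrose from 0.39 to 0.998 (sum of 1000000) or 0.06 (quantile). Genes higher and lower were 3522 and 2111 as reported, 5215 and 1103 with the first and 2551 and 2403 with the second. For Avicel against sucrose they were 2965 and 2145, 3891 and 1297, and 2210 and 2354, and for Avicel against no carbon 342 and 151, then 236 and 296 with the first. Same-numbered replicates had residual correlations from -0.31 to 0.45, and replicates of unlike number from -0.48 to 0.44. Residuals within a group of 3 are tied to each other, so these values do not settle whether the numbers pair the samples. With the replicate block the genes called on Avicel against no carbon were 278 higher and 96 lower. The nde-2 difference there was 1.95 (limma adjusted p = 0.0287), and no call of the 5 genes changed. The depth of the 4 single libraries is not known, which limits what their values can show.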
